A study of Mus musculus with 8 samples.

Results

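Brown adipose tissue (BAT) of db/db mice held lower levels of 201 genes than BAT of wild-type (WT) mice, and they included genes of fatty acid activation and acyl-CoA handling, fatty acid and sterol synthesis, lipid transport, amino acid and one-carbon metabolism, hormone and growth factor signalling, and RNA processing. The 201 genes were selected on the very difference that is described here, from counts per 1000000 reads (CPM) computed without mitochondrially encoded genes: at least 15 reads in each WT library, a WT mean at least 2 times the db/db mean, and every WT value above every db/db value. Of the 31053 genes in the table, 6764 had the required reads in WT and 207 met the whole rule. Of these 207, the rule set aside 6 (Aspg, Cyp2e1, Irf4, Cidea, Kcnk3 and Ppargc1b), which are not described. Because the values of the 201 genes in these 8 libraries chose them, their folds and their lack of overlap are given as a description and carry no test.

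The study collected BAT from 4 WT and 4 db/db male mice at 8 weeks of age, each profiled as 1 bulk RNA-seq library. The WT mice carried the C57BL6/J background. The db/db mice are homozygous for a mutation of the leptin receptor gene, which leaves them hyperphagic and obese from early life. The study's methods name them B6.BKS(D)-Leprdb/J. Its resource list gives only a stock number for them, which was not matched to that name here. Their background is therefore not settled, and for every member a background difference cannot be told apart from the mutation. The study's sources name more than one vendor for the WT mice, only one of which supplied the db/db mice, so whether the genotypes differed in vendor is not settled here. Tissue was taken after a fast, and the effect of the receptor mutation cannot be told apart from that of obesity. The labels call the cell type a stromal vascular fraction, but genes of mature adipocytes were abundant: Ucp1 held 2455 to 6487 reads and Adipoq 2951 to 7021 reads per library, so the samples are described as whole tissue. Lepr itself had 0 reads in every library and could not check the genotype, and Nnt, which separates C57BL/6 substrains, had at most 4 reads in any library. Libraries held 2374079 to 2615009 reads counted on genes for WT and 2382722 to 3240074 for db/db. Separate animals were the replicates, and in bulk tissue fewer cells of a type and less RNA per cell cannot be told apart.

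Brown adipocytes burn fatty acids and glucose to make heat through uncoupling protein 1 in the inner mitochondrial membrane. They take up fatty acids released from lipoproteins, make new fatty acids from acetyl-CoA, activate them to acyl-CoA and oxidise them in mitochondria and peroxisomes. Noradrenaline from sympathetic nerves drives this through beta-adrenergic receptors and cyclic AMP, and insulin drives glucose uptake and lipid synthesis. The tissue also secretes proteins that act on nerves, vessels and other organs.

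The proximal promoters of 6 members are shown so that the starts of genes from the lipid, amino acid, insulin and secreted groups can be read side by side. Each is the 250 bases before the transcription start in RefSeq (GRCm38.p6), written 5′ to 3′ on the gene's strand, with capitals marking every match to the motifs searched, in either orientation: CACGTG for the E-box, TGACGTCA for the cyclic AMP response element, AGGTCA for the nuclear receptor half-site, TCAAGGTCA for the ERR element (which ends in a whole half-site, so that each match to it is also a half-site match), CCAAT for the box bound by NF-Y, GGGCGG for the box bound by SP1, TATAAA for the core box bound by TBP, and TCACNCCAC for the sterol response core. Matches that overlap, as NF-Y boxes on the 2 strands do in Fasn, run together.
Fasn (chr11:120824548-120824797, minus strand): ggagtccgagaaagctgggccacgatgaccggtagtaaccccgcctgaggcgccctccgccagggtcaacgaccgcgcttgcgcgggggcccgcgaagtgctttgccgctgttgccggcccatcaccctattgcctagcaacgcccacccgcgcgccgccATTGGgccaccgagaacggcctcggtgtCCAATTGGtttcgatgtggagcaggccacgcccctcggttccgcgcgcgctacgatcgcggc
Slc25a1 (chr16:17928220-17928469, minus strand): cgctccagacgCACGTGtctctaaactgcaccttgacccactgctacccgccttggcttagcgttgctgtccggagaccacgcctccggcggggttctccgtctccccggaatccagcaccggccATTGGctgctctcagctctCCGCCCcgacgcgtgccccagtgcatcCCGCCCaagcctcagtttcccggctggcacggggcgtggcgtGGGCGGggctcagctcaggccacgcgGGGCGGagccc
Acot4 (chr12:84038129-84038378, plus strand): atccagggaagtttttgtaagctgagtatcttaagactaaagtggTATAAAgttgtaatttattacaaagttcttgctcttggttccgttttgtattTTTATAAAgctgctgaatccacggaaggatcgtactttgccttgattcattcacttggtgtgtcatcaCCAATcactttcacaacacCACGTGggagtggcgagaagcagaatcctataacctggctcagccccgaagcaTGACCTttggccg
Glul (chr1:153899679-153899928, plus strand): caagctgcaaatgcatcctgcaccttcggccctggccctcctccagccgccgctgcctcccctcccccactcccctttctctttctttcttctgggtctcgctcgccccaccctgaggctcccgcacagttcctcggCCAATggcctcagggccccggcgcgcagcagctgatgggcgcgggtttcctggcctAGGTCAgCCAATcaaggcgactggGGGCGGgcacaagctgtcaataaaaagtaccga
Irs2 (chr8:11008930-11009179, minus strand): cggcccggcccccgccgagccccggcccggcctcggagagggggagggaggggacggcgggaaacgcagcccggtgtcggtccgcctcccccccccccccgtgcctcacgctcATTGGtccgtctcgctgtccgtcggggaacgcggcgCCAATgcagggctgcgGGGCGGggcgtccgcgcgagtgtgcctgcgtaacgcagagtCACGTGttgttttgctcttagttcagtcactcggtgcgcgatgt
Nrg4 (chr9:55283626-55283875, minus strand): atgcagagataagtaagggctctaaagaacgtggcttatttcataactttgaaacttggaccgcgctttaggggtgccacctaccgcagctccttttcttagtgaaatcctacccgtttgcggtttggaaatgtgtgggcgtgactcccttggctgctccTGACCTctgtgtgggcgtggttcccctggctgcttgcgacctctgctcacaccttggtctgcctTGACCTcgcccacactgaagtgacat
A promoter was listed for 158 of the 201 genes and for 5429 of the genes with the required WT reads. Searching 250 bases before to 50 after the start, an E-box was found in 13.9% of the members' promoters and in 11.2% of all 5429, a nuclear receptor half-site in 15.2% and 11.8%, an NF-Y box in 35.4% and 37.9%, an SP1 box in 65.8% and 68.6% and a TBP box in 6.96% and 6.35%. The cyclic AMP response element was found in 1.27% of the members' promoters, those of Gosr2 and Ppm1d, against 3.79% of all. A direct repeat of 2 half-sites with 1 base between them and the ERR element were found in 0 of 158 members and in 0.0184% and 0.239% of all. The sterol response core, a motif added once the members were known, was found in 1.9% and 1.01%. These shares describe letters in a short window and were not tested.

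Taken over all members, 4.79, 4.56, 4.61 and 4.62% of the reads outside mitochondrially encoded genes fell on the 201 genes in WT replicates 1 to 4, against 1.41, 1.65, 1.57 and 1.66% in db/db replicates 1 to 4. All later series of values follow this replicate order. The median fold (WT mean over db/db mean) was 2.38, against 1.05 over the 6764 genes with the required reads. A fold of at least 3 was seen for 49 members, of at least 4 for 17 and of at least 5 for 8. Among the 6764 genes, 15.9% had every db/db value below every WT value and 3.06% met the whole rule before the 6 genes were set aside. All 201 members were also called lower by edgeR, which called 11.9% of 9264 genes lower and 15.8% higher in db/db (adjusted p under 0.05). Nothing is read from that count, since the same libraries chose the members. The threshold of 2 fell within a continuous range: Slc7a6os, Ak6 and Xrcc1 stood just inside at 2.0-fold, and Mpc2, Mtch2 and Zpr1 just outside, also at 2.0-fold when rounded. A further 17 genes met the count and fold criteria but overlapped between genotypes, among them B3galt2 at 3.72-fold, Nr4a2 at 3.48-fold and Ucp3 at 2.07-fold. At the count threshold, Gm11423, Kansl1l and Bend7 were inside with 15 reads in their lowest WT library, and Wee1 and Ppat outside with 14.

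**Figure D1:**
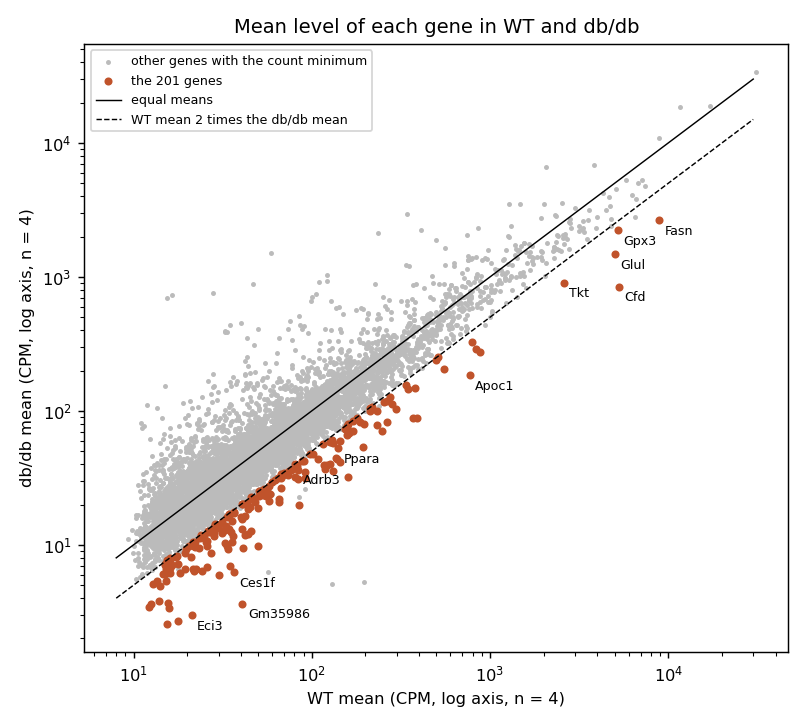
Mean level of each gene in WT (horizontal) and db/db (vertical) in CPM on log axes, 4 libraries each. The 201 genes lie below the dashed line by construction and span WT means from 12.2 to 8871 CPM, and the grey points also include the 6 genes set aside by the rule.

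The 8 members with the largest folds came from 5 function groups. Gm35986, a long non-coding RNA antisense to Elovl6, stood at 32.8, 54.9, 28.5 and 47.2 CPM in WT and 0.933, 6.83, 0.672 and 6.14 CPM in db/db, the largest difference of all members (11.2-fold). Its exons overlap those of Elovl6, so its reads are uncertain, and Elovl6 itself did not pass the test (log2 fold change -0.50, adjusted p = 0.0654). The db/db values of Gm35986 split into 2 libraries under 1 CPM and 2 above 6 CPM, and it had the widest db/db spread of all members, with a coefficient of variation of 90.4%. Eci3, an enoyl-CoA isomerase that handles unsaturated fatty acids, stood at 14.8, 20.6, 27.9 and 21.4 CPM in WT and 2.8, 2.44, 3.36 and 3.35 CPM in db/db (7.09-fold). Gm16143, a non-coding RNA that overlaps Pbld2, stood at 11.8, 19.3, 24.5 and 15.1 CPM in WT and 0, 3.42, 4.03 and 3.35 CPM in db/db (6.54-fold). The value of 0 in db/db replicate 1 was a count of 0 reads, which allows up to 1.40 CPM at a floor of 3 counts. The db/db values of Eci3 rest on 6, 5, 5 and 6 reads and are imprecise, and its WT libraries spread from the lowest in replicate 1 to the highest in replicate 3.

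Cfd, the serine protease adipsin that starts the alternative complement pathway, stood at 4911, 3407, 8628 and 4112 CPM in WT and 708, 594, 1363 and 701 CPM in db/db (6.26-fold). Replicate 3 was the highest library in both genotypes, and db/db replicate 3 still lay well below the lowest WT library. Acot4, a peroxisomal thioesterase that releases dicarboxylic acids such as succinate from their CoA esters, stood at 11.8, 9.98, 22.2 and 17.6 CPM in WT and 1.4, 3.42, 2.02 and 3.35 CPM in db/db (6.05-fold). Ces1f, a carboxylesterase that hydrolyses neutral lipids and esters, stood at 30.3, 33.7, 48.4 and 34.6 CPM in WT and 9.8, 2.93, 9.41 and 2.79 CPM in db/db (5.9-fold). The db/db libraries of Ces1f fell into a higher and a lower pair, replicates 1 and 3 against 2 and 4. Acsm3, a mitochondrial medium-chain acyl-CoA synthetase, stood at 43.9, 63.02, 34.1 and 59.8 CPM in WT and 2.8, 8.3, 16.1 and 11.7 CPM in db/db (5.16-fold). Mycl, a transcription factor of the Myc family, stood at 27.8, 19.97, 43.2 and 29.6 CPM in WT and 3.27, 6.34, 6.05 and 8.37 CPM in db/db (5.02-fold). In both, db/db replicate 1 was the lowest library of all.

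**Figure D2:**
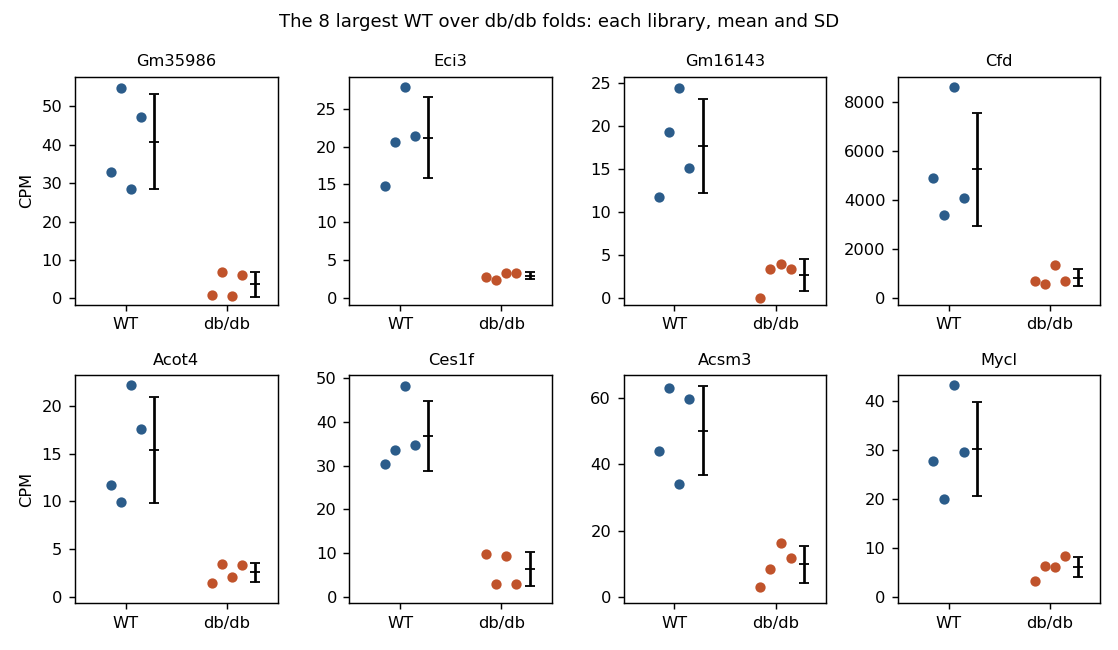
Level in CPM of the 8 members with the largest folds, 1 panel a gene, with a point for each of the 4 WT and 4 db/db libraries and, beside them, the mean with its SD. In every panel the db/db points lie below the WT points, as the selection required, and Cfd has 1 WT library at 8628 CPM, far above the other WT libraries.

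Fatty acid activation, oxidation and acyl-CoA hydrolysis held 11 members with a median fold of 3.55, the highest median of the 16 function groups. Besides Eci3, Acot4 and Acsm3 it held 3 further acyl-CoA thioesterases, which cleave acyl-CoA to free fatty acid and CoA: Acot1 at 4.34-fold, Acot11 at 3.55-fold and Acot7 at 2.13-fold. Acot1 and Acot4 are neighbours on chromosome 12 with close paralogs beside them, so their reads could have been split between copies. Slc27a2, a very-long-chain acyl-CoA synthetase and fatty acid transporter, stood at 76.7, 70.5, 94.5 and 96.3 CPM in WT and 5.6, 21.96, 32.9 and 19.5 CPM in db/db (4.22-fold). Acot11, the thioesterase known for its induction by cold in brown fat, stood at 48.9, 44.3, 22.8 and 53.5 CPM in WT and 11.7, 13.2, 16.8 and 6.14 CPM in db/db. Pex3, which inserts peroxisomal membrane proteins, stood at 89.7, 86.1, 95.03 and 119 CPM in WT and 45.2, 41.97, 52.4 and 52.5 CPM in db/db (2.03-fold). Its partner in peroxisome assembly Pex10 (2.12-fold), the carnitine transporter Slc22a5 (2.49-fold) and the glutarate CoA-transferase Sugct (3.06-fold) complete the group. In Slc27a2, db/db replicate 1 lay far under the other db/db libraries.

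The core enzymes of mitochondrial fatty acid oxidation were not among the members. Of the 25 tested genes of that list, 12 were lower and 2 higher in db/db (edgeR, adjusted p under 0.05), with a median log2 fold change of -0.35 against 0.0066 over all genes tested. Tested changes of genes outside the selection are given as edgeR's log2 fold change. The falls named here were smaller than the rule required: Etfb, the electron acceptor of the acyl-CoA dehydrogenases, fell by 0.89 on the log2 scale (SE 0.17, adjusted p = 5.68e-04), and Hadha, the alpha subunit of the trifunctional protein, by 0.75 (SE 0.15, adjusted p = 0.00131). Cpt1a, the liver-type carnitine palmitoyltransferase, rose by 1.12 (SE 0.30, adjusted p = 0.0104). Of the 18 non-member peroxisomal genes tested, 3 were lower, among them catalase (Cat, log2 fold change -0.85, adjusted p = 1.15e-04), and 3 were higher, with a median of -0.0089.

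Fatty acid and sterol synthesis held 9 members between 2.22-fold and 3.36-fold. Fasn, fatty acid synthase, which builds palmitate, stood at 10048, 9079.8, 6286 and 10070.5 CPM in WT and 3042, 3246, 1053 and 3229 CPM in db/db (3.36-fold; means 8871 ± 1784 and 2642 ± 1064 CPM, SD, n = 4). In db/db replicate 3 Fasn was far lower than in the other db/db libraries, and WT replicate 3 was the lowest WT library. Slc25a1, the carrier that exports citrate from mitochondria for acetyl-CoA, stood at 505, 598, 569.6 and 533 CPM in WT and 220.2, 266, 110.3 and 222 CPM in db/db (2.7-fold). Acacb, the acetyl-CoA carboxylase whose malonyl-CoA restrains carnitine palmitoyltransferase, stood at 939, 791, 618 and 805 CPM in WT and 253, 359.7, 341 and 357 CPM in db/db (2.41-fold). Slc25a1, like Fasn, was lowest in db/db replicate 3, while Acacb was not. The others were the mitochondrial acetyl-CoA synthetase Acss1 (2.98-fold), the acetoacetyl-CoA synthetase Aacs (2.91-fold), squalene synthase Fdft1 (2.86-fold), ethylmalonyl-CoA decarboxylase Echdc1 (2.35-fold), the cytosolic thiolase Acat2 (2.24-fold) and Insig1, which retains the sterol-sensing SREBP complex in the endoplasmic reticulum (2.22-fold).

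Of the 19 other tested genes of the fatty acid synthesis list, 4 were lower and 3 higher, with a median log2 fold change of -0.15, against -0.29 over all 22 tested genes of the list, members included. Acaca (log2 fold change -0.15, adjusted p = 0.646), Acly (log2 fold change -0.45, adjusted p = 0.114), Scd1 (log2 fold change 0.13, adjusted p = 0.643) and Srebf1 (log2 fold change -0.03, adjusted p = 0.965) did not pass. Thrsp, a lipogenic adipocyte protein, fell by 0.71 (SE 0.18, adjusted p = 0.00551), whereas the desaturases Scd2 and Fads3 rose by 2.23 and 3.03 (adjusted p = 2.92e-05 and 8.59e-07). Among the 25 non-members of the glycerolipid list, 9 were lower and 4 higher: the mitochondrial acyltransferase Gpam fell by 1.61 (SE 0.44, adjusted p = 0.0103) and the lipid droplet coats Plin1 and Plin4 rose by 0.79 and 1.07 (adjusted p = 6.85e-04 and 1.95e-04).

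Lipid transport, phospholipids and lipid hydrolases held 18 members with a median fold of 2.43. Apoc1, an apolipoprotein that inhibits lipoprotein clearance, stood at 726, 783, 792 and 770.1 CPM in WT and 176, 178, 147 and 239 CPM in db/db (4.15-fold), with little spread in WT. Crls1, the synthase of the mitochondrial lipid cardiolipin, stood at 275, 379, 498 and 375 CPM in WT and 84.9, 183, 169 and 155 CPM in db/db (2.58-fold). Angptl8, which is induced by feeding and insulin and acts with related proteins on lipoprotein lipase, stood at 22.9, 18.1, 18.8 and 24.6 CPM in WT and 7.46, 11.7, 4.03 and 9.49 CPM in db/db (2.58-fold). Crls1 was lowest in replicate 1 of both genotypes. Also members were the cholesterol exporter of lysosomes Npc1 (2.48-fold), the lipoprotein receptor Scarb1 (2.04-fold) and the monoacylglycerol lipase Abhd6 (2.51-fold). Among the 15 non-members of the fatty acid uptake list, 3 were lower and 6 higher: lipoprotein lipase Lpl fell by 0.46 (SE 0.14, adjusted p = 0.0232), and Fabp3 and Cav1 rose by 1.85 and 1.22 (adjusted p = 1.37e-06 and 4.15e-06).

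Sugar and pyruvate metabolism held 5 members. Tkt, transketolase of the pentose phosphate pathway, stood at 2984, 2896, 1878 and 2657 CPM in WT and 785, 1085, 676 and 1076 CPM in db/db (2.88-fold). Pdp2, the phosphatase that activates pyruvate dehydrogenase, stood at 136, 145, 101 and 174 CPM in WT and 34.5, 44.4, 44.4 and 50.8 CPM in db/db (3.19-fold). Pgm1, phosphoglucomutase, which links glycogen and glycolysis, stood at 351, 354, 327 and 314 CPM in WT and 156, 144, 169 and 156 CPM in db/db (2.15-fold). Tkt was lowest in replicate 3 of both genotypes, the pattern of Fasn, while Pgm1 hardly varied within a genotype. Mpc1, a subunit of the mitochondrial pyruvate carrier, stood at 228, 144, 153 and 189.5 CPM in WT and 71.4, 108, 71.3 and 106 CPM in db/db (2.01-fold), and its partner Mpc2 fell just short of the rule. Fn3k, which repairs glycated proteins, was at 2.14-fold. Of the 41 non-members tested in the glucose list, 17 were lower and 5 higher, with a median log2 fold change of -0.41. Pdha1, the alpha subunit of pyruvate dehydrogenase, fell by 1.02 (SE 0.14, adjusted p = 5.25e-05), pyruvate carboxylase Pcx by 0.96 (SE 0.12, adjusted p = 1.82e-05) and the glycolytic activator Pfkfb3 by 0.87 (SE 0.13, adjusted p = 6.15e-05). Pygm, the muscle form of glycogen phosphorylase, rose by 2.06 (SE 0.40, adjusted p = 7.63e-04); the skeletal muscle markers given below were higher as well.

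Amino acid, one-carbon and nucleotide metabolism held 12 members with a median fold of 2.73. Glul, glutamine synthetase, stood at 4461, 5713, 5059 and 4845 CPM in WT and 1166, 1471, 1694 and 1579.8 CPM in db/db (3.4-fold; means 5019 ± 524 and 1478 ± 227 CPM). Impdh1, the rate-limiting dehydrogenase of guanine nucleotide synthesis, stood at 1016, 918, 632 and 788 CPM in WT and 189, 302, 389 and 284 CPM in db/db (2.88-fold). Slc1a3, a glutamate and aspartate transporter, stood at 270.4, 235, 265 and 221 CPM in WT and 64.8, 70.8, 71.3 and 74.8 CPM in db/db (3.52-fold). The lowest WT library of Glul and of Slc1a3 stood more than 2 times above the highest db/db library. Aldh4a1, which completes proline breakdown to glutamate, stood at 138, 139, 85.4 and 123 CPM in WT and 48.5, 39.5, 32.3 and 37.96 CPM in db/db (3.07-fold). Shmt1, the cytosolic serine hydroxymethyltransferase, stood at 34.6, 43.7, 41.5 and 59.8 CPM in WT and 11.7, 19.03, 22.9 and 22.9 CPM in db/db (2.35-fold), and the folate carrier Slc25a32 was at 3.09-fold. Slc5a6, the transporter of biotin and pantothenate, stood at 22.9, 33.1, 31.3 and 26.4 CPM in WT and 9.8, 15.1, 13.4 and 16.2 CPM in db/db (2.08-fold). In this group db/db replicate 1 was the lowest db/db library for 8 of 12 members. Of the 39 non-members of the amino acid catabolism list, 12 were lower and 4 higher, with falls in the branched-chain genes Dbt (log2 fold change -0.80, adjusted p = 2.07e-04) and Bckdha (-0.77, adjusted p = 7.36e-04). Of the 41 non-members of the coenzyme list, 8 were lower, among them Nampt, the rate-limiting enzyme of NAD salvage (-0.93, SE 0.16, adjusted p = 3.23e-04), and 2 were higher.

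Mitochondrial membrane, import and assembly held 6 members. Letmd1, an inner membrane protein required for brown fat heat production, stood at 572, 551, 366 and 543 CPM in WT and 196, 246, 252 and 314 CPM in db/db (2.01-fold). Immp2l, a peptidase of the inner membrane, stood at 142, 159, 175 and 142 CPM in WT and 66.2, 65.4, 73.3 and 87.1 CPM in db/db (2.12-fold). Atp23, an assembly protease of the ATP synthase, stood at 26.6, 24.3, 22.2 and 17 CPM in WT and 8.4, 1.95, 8.74 and 7.26 CPM in db/db (3.42-fold). Letmd1 had a single low WT library, replicate 3, and Atp23 a single low db/db library, replicate 2. The other 3 were Slc25a33, a pyrimidine nucleotide carrier (2.81-fold), Rmnd1 (2.20-fold) and Sco2, a copper chaperone of cytochrome oxidase (2.19-fold). Among the 15 non-members of the heat production list, 6 were lower and 5 higher. Ucp1, the uncoupling protein itself, fell by 0.65 (SE 0.19, adjusted p = 0.0176) from 3369 ± 537 CPM in WT to 2174 ± 672 CPM in db/db, a smaller fall than the rule required, and Ckmt2 and Gamt of the creatine pathway rose by 3.2 and 2.97 (adjusted p = 2.09e-04 and 9.18e-05). Ckmt2 is the creatine kinase of muscle mitochondria. The summed skeletal muscle markers were 6.29 times as high in db/db, with all 20 higher on average. That ratio leans on db/db replicate 1, at 20828 CPM, while the lowest db/db library stood at 3991 CPM and the highest WT library at 2766 CPM. The part of muscle in the rises of Ckmt2 and Gamt was not tested.

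Receptors and intracellular signalling was the second largest group, with 20 members and a median fold of 2.30. Adrb3, the beta3-adrenergic receptor, stood at 77.3, 54.9, 149.7 and 52.9 CPM in WT and 48.05, 33.2, 30.9 and 32.9 CPM in db/db (2.31-fold). Adcy9, an adenylyl cyclase, stood at 64.3, 102, 59.2 and 72.4 CPM in WT and 21.9, 54.7, 37.7 and 27.4 CPM in db/db (2.1-fold). Pde4d, a phosphodiesterase that degrades cyclic AMP, stood at 31.6, 44.9, 53.5 and 46.6 CPM in WT and 13.99, 16.1, 10.1 and 8.37 CPM in db/db (3.64-fold). Adrb3 had the widest WT spread of all members, with a coefficient of variation of 54.2%, and its lowest WT library, replicate 4, lay only just above db/db replicate 1. Rgs7, an inhibitor of G protein signals, stood at 31.6, 27.5, 26.7 and 27.1 CPM in WT and 11.7, 8.79, 11.4 and 17.3 CPM in db/db (2.29-fold). The members included a receptor and a cyclase that raise cyclic AMP and a phosphodiesterase that lowers it. Of the 26 other genes tested in the adrenergic list, 5 were lower, including the phosphodiesterase Pde3b (log2 fold change -0.95, SE 0.14, adjusted p = 7.54e-05), and 3 were higher, while Adrb1 (log2 fold change 0.13, adjusted p = 0.754) did not pass.

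Within the same group, Irs2, the adaptor that carries insulin receptor signals, stood at 131, 285, 287 and 353 CPM in WT and 69.04, 83.9, 58.5 and 119 CPM in db/db (3.19-fold). Its WT replicate 1 lay close to the highest db/db library, and the other WT libraries lay far above. Pim1, a serine/threonine kinase induced by STAT signals, stood at 158, 261, 179 and 173 CPM in WT and 53.6, 78.6, 44.4 and 38.5 CPM in db/db (3.59-fold). Dusp4, a phosphatase of MAP kinases, stood at 35.9, 46.2, 30.7 and 26.4 CPM in WT and 7.46, 5.86, 6.72 and 7.82 CPM in db/db (5.0-fold), with db/db libraries close together. The insulin receptor Insr, a non-member of the growth factor list, fell by 0.94 (SE 0.20, adjusted p = 0.00147). Klb, the co-receptor for FGF21, stood at 38.4, 23.1, 45.5 and 40.3 CPM in WT and 19.1, 21.96, 9.41 and 19.5 CPM in db/db (2.1-fold), and its WT replicate 2 was almost level with db/db replicate 2. Tek, the endothelial angiopoietin receptor, stood at 13.6, 11.2, 10.2 and 25.8 CPM in WT and 8.4, 5.37, 6.72 and 6.14 CPM in db/db (2.29-fold), with WT replicate 4 about 2 times its other WT libraries. Socs2, a feedback inhibitor of cytokine and growth hormone signals, was at 3.65-fold.

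Secreted factors held 8 members, of which 4 had folds of at least 3. Gpx3, the plasma glutathione peroxidase, stood at 5538, 4506, 5956 and 4857 CPM in WT and 1564, 2148, 3313 and 1887 CPM in db/db (2.34-fold; means 5214 ± 654 and 2228 ± 761 CPM). Cxcl14, a chemokine released by brown adipocytes, stood at 160.2, 130.4, 141 and 205 CPM in WT and 56.4, 27.8, 15.5 and 29.03 CPM in db/db (4.94-fold). Nrg4, a ligand of ErbB4 made by brown fat, stood at 228, 179.7, 152 and 183 CPM in WT and 81.2, 60.03, 79.3 and 108 CPM in db/db (2.26-fold). Both Gpx3 and Cfd were highest in replicate 3 of each genotype. Vegfa, the main growth factor for vessels, stood at 168, 185, 146 and 141 CPM in WT and 47.6, 99.6, 76.6 and 95.5 CPM in db/db (2.01-fold). The remaining members were the activin antagonist follistatin (Fst, 3.2-fold), the neurotrophic ligand neurturin (Nrtn, 3.14-fold) and complement C3 (2.38-fold). Among the 19 other genes tested in the growth factor list, 2 were lower and 6 higher. Fgfr2 fell by 3.62 (SE 0.68, adjusted p = 6.61e-04). It was no member because it missed the required 15 reads in at least 1 WT library, so its fall rests on few reads. Fgf1, Bmp4 and Nnat rose by 2.86, 2.24 and 4.66 (adjusted p = 1.41e-06, 5.56e-05 and 4.57e-07). Adipoq, adiponectin, stood at 2305 ± 379 CPM in WT and 2915 ± 315 CPM in db/db and did not pass (adjusted p = 0.112).

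Transcription and chromatin held 17 members, and Mycl at 5.02-fold stood apart from the next, E2f5 at 2.99-fold. Ppara, the nuclear receptor for fatty acids that drives oxidation genes, stood at 163, 106, 102 and 193 CPM in WT and 23.8, 37.1, 59.8 and 89.3 CPM in db/db (2.69-fold). Its db/db libraries were widely spread, and the highest, replicate 4, lay close under the lowest WT library, replicate 3. Trp53inp1, a stress-induced cofactor of p53, stood at 75.5, 126, 55.2 and 47.9 CPM in WT and 41.05, 36.6, 37.7 and 29.6 CPM in db/db (2.1-fold). The oestrogen receptor Esr1 was at 2.10-fold and the BTB protein Kctd15 at 2.6-fold. Of the 25 non-members of the brown fat regulator list, 7 were lower: Nr4a3, Nr4a1 and Nr4a2, immediate early nuclear receptors, fell by 3.23, 2.84 and 1.83, Esrra by 0.80, Ppargc1a by 0.79, Thrb by 0.76 and Ebf2 by 0.59 on the log2 scale. Ebf1 rose by 1.0 (adjusted p = 3.45e-04). Prdm16 (log2 fold change 0.56, adjusted p = 0.188) and Pparg (log2 fold change -0.39, adjusted p = 0.341) did not pass.

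Ribosome assembly, tRNA and mRNA processing was the largest group, with 22 members, but its median fold of 2.13 was near the threshold. Trit1, which adds an isopentenyl group to tRNA, stood at 129.9, 122, 143 and 134 CPM in WT and 29.4, 35.6, 39 and 39.1 CPM in db/db (3.7-fold). Snrnp48, a protein of the minor spliceosome, stood at 156, 162, 198 and 165 CPM in WT and 82.1, 94.7, 75.3 and 84.3 CPM in db/db (2.02-fold). Gtpbp4, a GTPase of large ribosomal subunit assembly, stood at 151, 155, 151 and 173 CPM in WT and 85.8, 60.03, 76.6 and 88.8 CPM in db/db (2.02-fold). Trit1 varied little within a genotype, and Gtpbp4 was lowest in db/db replicate 2. Trmt13, a tRNA methyltransferase, was at 3.66-fold, and the nucleolar proteins Nop2, Nop14 and Gnl3 were at 2.17-fold, 2.14-fold and 2.13-fold.

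Ubiquitin ligases and protein turnover held 10 members. Fbxo31, the substrate-binding subunit of a ubiquitin ligase, stood at 343, 437, 403 and 384 CPM in WT and 85.4, 113, 75.97 and 82.1 CPM in db/db (4.4-fold). Herpud1, which serves the degradation of proteins from the endoplasmic reticulum, stood at 231, 294, 194 and 212 CPM in WT and 89.1, 114, 90.8 and 104 CPM in db/db (2.34-fold). The WT libraries of Herpud1 spread more widely than its db/db libraries, with the highest in replicate 2. DNA repair held 7 members with a median fold of 2.11: the glycosylase Neil2 stood at 25.4, 29.9, 29.02 and 24.6 CPM in WT and 7.93, 3.9, 10.1 and 12.8 CPM in db/db (3.13-fold). Parp6, an ADP-ribosyltransferase, stood at 43.3, 41.2, 43.8 and 44.7 CPM in WT and 20.5, 13.7, 25.5 and 22.3 CPM in db/db (2.11-fold). Xrcc1, the scaffold of single-strand break repair, stood at 37.7, 31.8, 36.4 and 56.7 CPM in WT and 21.5, 23.9, 20.2 and 15.6 CPM in db/db (2.0-fold). The WT values of Parp6 lay within a few CPM of each other, and Xrcc1 had a single high WT library, replicate 4.

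Ion transport, vesicle traffic and cytoskeleton held 17 members. Slc4a4, a sodium bicarbonate cotransporter, stood at 411, 345, 332 and 389 CPM in WT and 78.4, 103, 99.5 and 75.9 CPM in db/db (4.14-fold). Tgoln1, a protein of the trans-Golgi network, stood at 494, 421, 580.4 and 504 CPM in WT and 244, 259, 242 and 222 CPM in db/db (2.07-fold). Car11, a carbonic anhydrase-related protein without enzyme activity, stood at 14.2, 16.2, 20.5 and 11.3 CPM in WT and 3.27, 5.37, 2.69 and 3.35 CPM in db/db (4.24-fold). In Slc4a4 the lowest WT library was 3.22 times the highest db/db library. Cell surface and junctions held 6 members. Mpzl2, an adhesion protein, stood at 139.8, 144, 137 and 159.9 CPM in WT and 23.8, 61.01, 34.96 and 46.3 CPM in db/db (3.49-fold). The gap junction protein Gja1 stood at 96.5, 125, 126 and 116 CPM in WT and 48.5, 72.2, 56.5 and 48.01 CPM in db/db (2.06-fold). Negr1, an adhesion molecule known from neurons, stood at 26.6, 18.1, 26.2 and 32.7 CPM in WT and 5.13, 8.3, 10.1 and 3.91 CPM in db/db (3.78-fold). Mpzl2 differed by little among WT libraries but by more than 2 times among db/db libraries. Emcn, the endothelial sialomucin endomucin, stood at 21.7, 24.3, 24.5 and 17.6 CPM in WT and 11.2, 11.2, 5.38 and 14.5 CPM in db/db (2.08-fold).

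Non-coding RNAs held 15 members with a median fold of 3.15, and 8 of them had a fold of at least 3. Gm10032 stood at 127, 186, 88.2 and 107 CPM in WT and 15.4, 55.2, 36.98 and 53.6 CPM in db/db (3.15-fold). Lncbate1, a long non-coding RNA known from brown adipocytes, stood at 51.4, 65.5, 52.9 and 60.4 CPM in WT and 25.7, 30.7, 24.9 and 27.9 CPM in db/db (2.11-fold). Gm10032 was far lower in db/db replicate 1 than in the other db/db libraries, while Lncbate1 was even across them. Proteins of other or unassigned function held the last 18 members. Fam13a, a gene of fat distribution and insulin response, stood at 1060.5, 1006, 689.7 and 772 CPM in WT and 252, 304, 282 and 259.6 CPM in db/db (3.21-fold). Isoc2a, an isochorismatase-like protein, stood at 332, 272, 236 and 285 CPM in WT and 88.2, 111, 129.8 and 125 CPM in db/db (2.48-fold). Nxnl1, a thioredoxin-like protein known from photoreceptors, stood at 19.2, 15.6, 24.5 and 27.7 CPM in WT and 7.0, 5.37, 5.38 and 7.82 CPM in db/db (3.4-fold). Of the WT libraries of Fam13a, replicates 1 and 2 stood above 3 and 4.

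**Figure D3:**
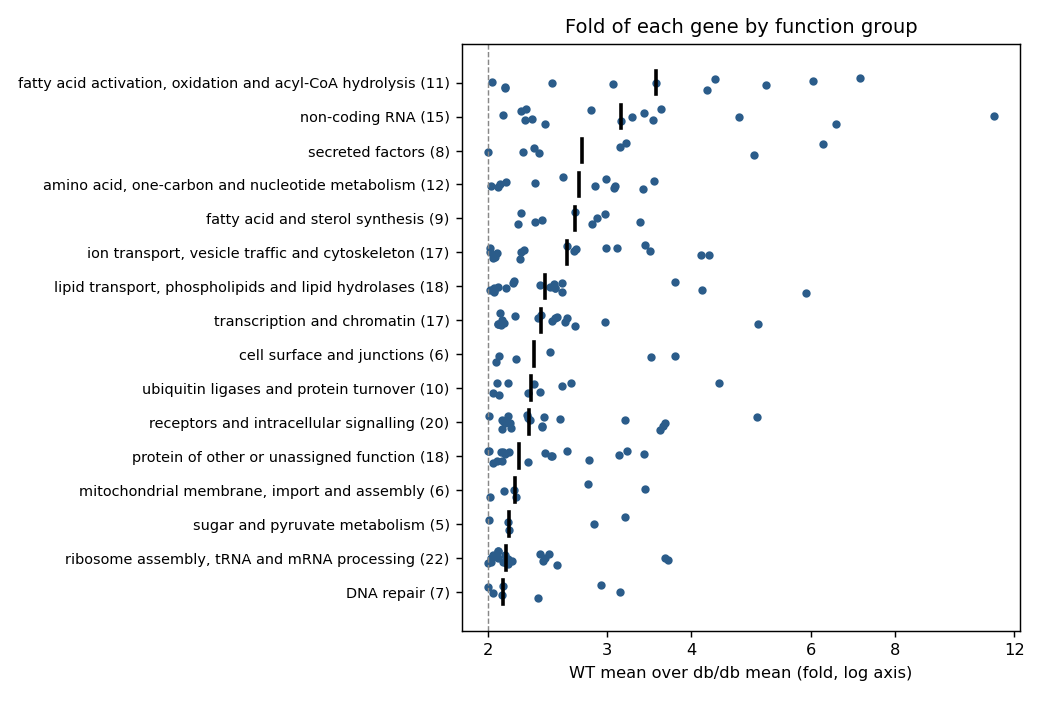
Fold of each of the 201 genes (WT mean over db/db mean, log axis) by function group, with the number of genes in brackets, the median as a bar and the rule's limit of 2 as a dashed line. Acyl-CoA handling and non-coding RNA have the highest medians, 3.55 and 3.15, and DNA repair the lowest, 2.11.

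By gene type, 186 of the 201 members were protein-coding, 11 antisense and 4 lincRNA, so that 92.5% were protein-coding against 98.8% of the 6764 genes with the required reads. Exons of 83 members overlap those of another annotated gene, 44 of them a protein-coding one. Whether the counting used the strand is not given in the sources used here, so the reads of such genes and their partners cannot be separated; among the members given above with every value this concerns Gm35986, Eci3, Gm16143, Acot4, Acsm3, Slc27a2, Acot11, Pex3, Crls1, Tkt, Pgm1, Mpc1, Glul, Aldh4a1, Shmt1, Slc5a6, Adrb3, Irs2, Pim1, Nrg4, Gtpbp4, Tgoln1, Mpzl2 and Fam13a. The median exonic length was 4328 bases for the members and 4614 for all 6764 genes.

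Along the genome (mm10), 11 pairs of members lay within 100 kb of each other. Acot1 (chr12:84009490-84018371) and Acot4 (chr12:84038379-84048601) are related genes on 1 strand. Mycl (chr4:122995652-123002485) and Trit1 (chr4:123016597-123054949) lie 14.1 kb apart on 1 strand, with folds of 5.02 and 3.70. Gm16143 (chr10:63055603-63057467) and Pbld1 (chr10:63060162-63077962) lie 2.69 kb apart on opposite strands, with folds of 6.54 and 2.83, and Fst overlaps its antisense partner Gm47040. The mutated gene Lepr lies at chr4:101717404-101815352. Within 10 Mb of its start lay 3 members, 1.49% of the 201, against 0.636% of the 6764 genes: Pgm1 at 1.79 Mb, Acot11 at 5.03 Mb and Tek at 6.98 Mb. A stretch of the donor strain around Lepr can differ from C57BL/6 in a congenic line. For these 3 genes it cannot be told apart from the receptor mutation. A difference in background elsewhere in the genome would concern other members too and was not tested. By chromosome, members made up 6.69% of the genes with the required reads on chromosome 13 (16 of 239), the highest share. Chromosome 17 came next with 4.38%. These shares were not tested.

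Over the pathway lists, the median log2 fold change of the non-members was -0.41 in the glucose list, -0.35 in mitochondrial oxidation, -0.32 in the glycerolipid list (25 genes) and -0.29 in amino acid catabolism, and it was 0.32 in heat production, 0.32 in growth factors, 0.28 in fatty acid uptake and 0.23 in the cytochrome P450 list. Leaving out the members, and the genes set aside, takes away genes that fell. Over all tested genes the median was -0.56 in heat production, of the opposite sign, 0.06 in growth factors, 0.23 in fatty acid uptake and 0.07 in the cytochrome P450 list. It was -0.43 in the glucose list, -0.35 in mitochondrial oxidation, -0.33 in the glycerolipid list and -0.32 in amino acid catabolism. In the cytochrome P450 list, where Ces1f was the member, 6 of the 26 others were lower and 9 higher, and among the 16 clock genes tested 2 were lower and 1 higher. Among all genes tested, 11.9% were lower and 15.8% higher. The list counts are not on the same footing, since they leave out the members and the genes set aside, all lower by selection. In heat production they cover 15 of the 20 tested genes, and in fatty acid uptake 15 of 18. Shares of lower genes in the lists would be larger with these genes counted. The lists were chosen with earlier results of these data known.

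**Figure D4:**
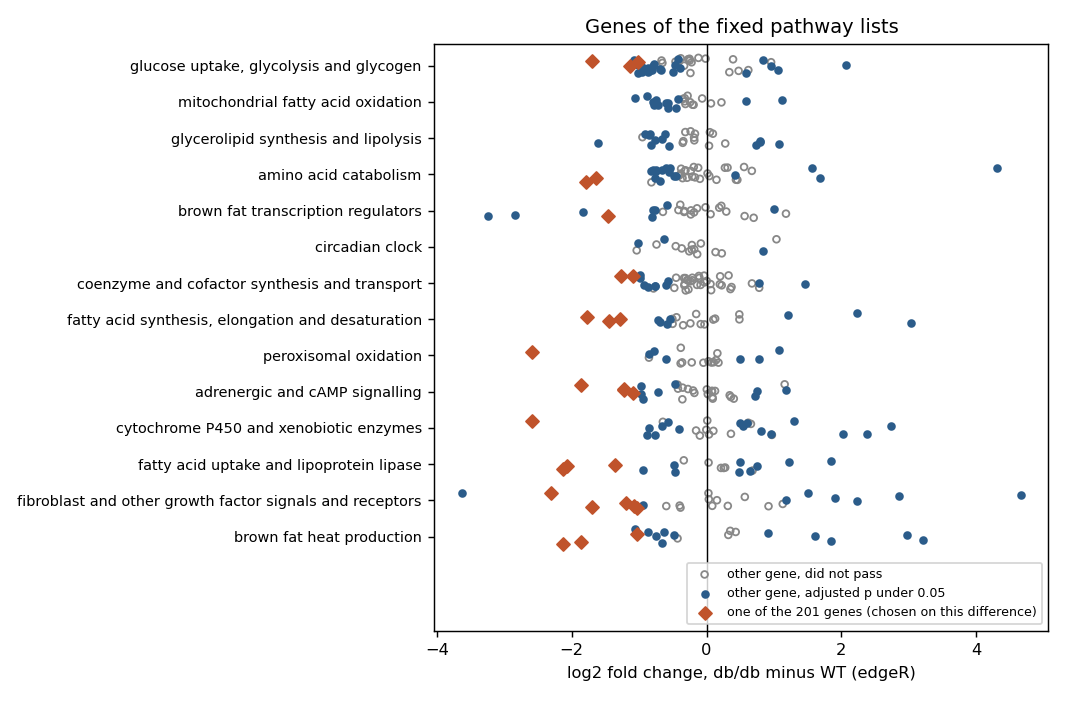
Log2 fold change (db/db minus WT, edgeR) of each tested gene of the 14 pathway lists, with members as diamonds, other genes that passed an adjusted p of 0.05 as filled points and those that did not as open points; the 6 genes set aside are left out. Members lie left of 0, as the selection required, and non-members lie on both sides of 0 in every list.

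Markers of other cell types moved with genotype. The summed level of 15 macrophage genes was 269 to 365 CPM in WT and 1300.3 to 2340 CPM in db/db, with 14 of the 15 higher on average in db/db. The 20 skeletal muscle genes summed to 768 to 2766 CPM in WT and 3991 to 20828 CPM in db/db, the highest in db/db replicate 1, with all 20 higher on average. The 13 fibroblast and progenitor genes summed to 1077 to 1312 CPM in WT and 2127 to 4692 CPM in db/db, and all 13 were higher on average. White adipocyte genes summed to 211 to 588 CPM in WT and 2888 to 4480 CPM in db/db, with 7 of the 12 higher on average and Hoxc10, Tcf21 and Wt1 at 0 in every library. Smooth muscle and pericyte genes summed to 1.66 times the WT level in db/db, with 7 of the 10 higher on average. Nerve and Schwann genes summed to 2.63 times the WT level, with 8 of the 11 higher on average. The nerve marker Th was at 0 in every library. Only 5 of the 11 had enough reads to be tested by edgeR, and 3 of these were called higher. Each of these 6 sums did not overlap between genotypes (exact two-sided permutation test, p = 0.0286, the smallest that 4 against 4 allows; adjusted over 9 lists, p = 0.0429). Endothelial genes summed to 1152 to 1345 CPM in WT and 1083 to 1335 CPM in db/db (exact permutation p = 0.629, adjusted p = 0.708). Thus Tek and Emcn were lower while the list's sum differed by less than its spread. Of the 15 endothelial genes, 7 were higher on average in db/db. Among these 7 was Aqp1, with means of 251 CPM in WT and 350 CPM in db/db, a large part of the sum. Lymphocyte genes, with Cd79a at 0 throughout, did not differ beyond their spread (exact permutation p = 0.8, adjusted p = 0.8).

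The 5 genes that brown and white adipocytes share (Adipoq, Plin1, Fabp4, Lipe and Pparg) summed to 12506 to 22244 CPM in WT and 20805 to 28916 CPM in db/db (exact permutation p = 0.0571, adjusted p = 0.0734), and 4 of the 5 were higher on average in db/db. With each library scaled to this sum, the median fold was 3.69 over the 201 members and 1.62 over all 6764 genes. A sum that is higher in db/db raises every fold, so nothing about the members is read from these values. Under the same scaling, chosen after seeing the data, 3 of the 6 cell type sums no longer passed: fibroblast and progenitor (log2 difference 0.73, exact permutation p = 0.0571), nerve and Schwann (0.79, exact permutation p = 0.0571) and smooth muscle and pericyte (0.11, exact permutation p = 0.714). With the skeletal muscle genes left out of the library total, 190 of the 201 met the rule. The part of the muscle, macrophage and fibroblast levels in the members' folds was not tested.

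**Figure D5:**
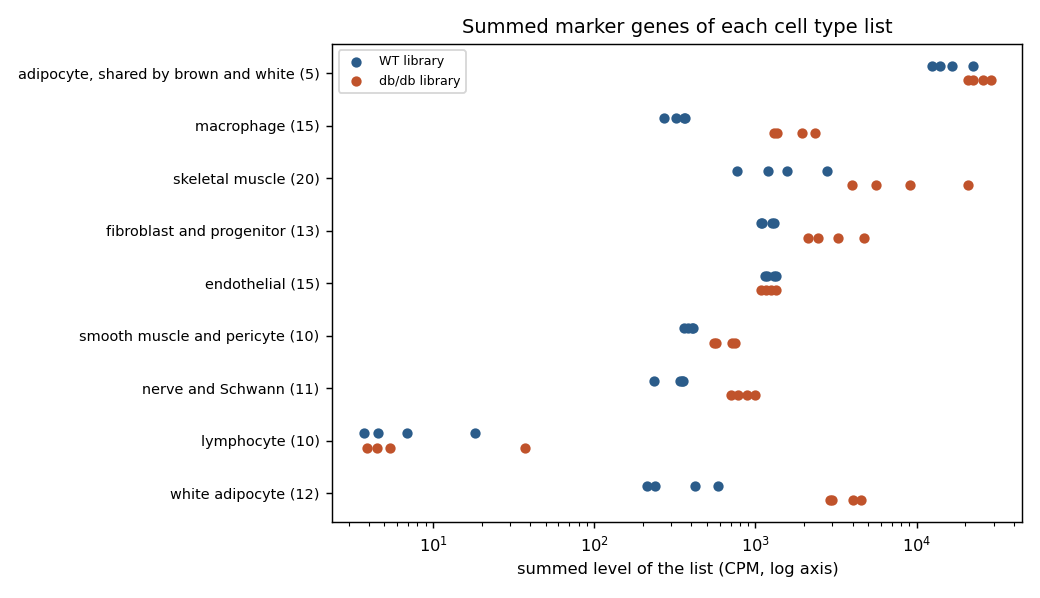
Summed level in CPM (log axis) of the marker genes of 9 cell type lists, with the number of genes in brackets and 1 point for each WT and db/db library. Macrophage, skeletal muscle, fibroblast and white adipocyte sums do not overlap between genotypes and are higher in db/db, while endothelial sums overlap.

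Within a genotype the members did not move as 1 block. The coefficient of variation had a median of 18.8% in WT and 24.0% in db/db. Counting error alone would give medians of 11.3% and 16.1%, so part of this spread comes from the number of reads. In WT, each of the 4 libraries was the lowest for between 33 and 66 of the 201 genes. The most were in replicate 3 (32.8%, against 25.9% of all 6764 genes). The fewest were in replicate 4 (16.4%, against 22.9%). In db/db, replicate 1, the library with the most skeletal muscle reads, was the lowest for 80 members (39.8%), while over all 6764 genes it was the lowest for 26.1%. It was the highest for 32 members (15.9%), against 28.3% of all genes. Without it the median fold of the 201 genes was 2.31, 169 of them still met the rule, and 192 genes met it in all.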

How the data were processed

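BAT of 4 WT and 4 db/db mice was profiled by bulk RNA-seq, and the authors deposited raw read counts per Ensembl gene, with no normalization. The study's methods name bbduk, STAR and HTSeq-count on the mouse build mm10, while the submitters' processing notes name Trimmomatic, HISAT2, DESeq2 and the builds GRCm38 and mm10; strand use in counting and any collapsing of molecular identifiers are not given in the sources used here. The authors' normalized table and sample sheet were not used.

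Counts were scaled to CPM over each library's total without the 13 mitochondrially encoded genes, which held 30.7 to 37.6% of the counts. Fold is the ratio of genotype means. The members and gene lists were chosen with earlier results of these data known, and the function groups were written after the members were seen. Every member was placed in a group. Values in every library are given for the 8 members with the largest fold, for the 2 with the highest WT mean and the 1 with the largest fold in each group of at least 3, and for members of a pathway or cell type list. Other members are given by fold, as examples picked after their values were seen, and non-members only from the lists and from genes near a threshold. CPM is not corrected for gene length, so levels were not compared between genes. Symbols, coordinates and exonic overlap came from GENCODE M21 (mm10), which lacked 42 identifiers of the table.

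Genes outside the selection were tested with edgeR 4.0.16 in R 4.3.3 (quasi-likelihood F test, TMM scaling, filterByExpr with a minimum count of 10, which kept 9264 genes, genotype as the only term), with Benjamini-Hochberg adjustment at 0.05. The study used DESeq2, run here as an alternative (version 1.42.0). Sums over cell type lists were compared by exact two-sided permutation tests (scipy 1.17.1). The edgeR step and the rule were tested on simulated data. Depth limits the precision, and the interval a count of 0 allows covers counting error only. Alternatives were other scalings, count and fold limits, filters, DESeq2, blocking on the replicate number, and dropping libraries 1 at a time.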

Additional observations from a re-analysis of the deposited data

Results flagged for a closer look

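Within each genotype, the highest or lowest of the 4 libraries was set against the other 3 by Dixon's criterion, for the 65 members given with every value, the 9 cell type sums and the share of reads on the members. Of 150 sets of 4 libraries, 8 had a library that stood apart, where chance alone gives about 7.5.

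Fasn stood at 1053 CPM in db/db replicate 3 and between 3042 and 3246 CPM in the other db/db libraries. Cfd stood at 1363 CPM in the same library and between 594 and 708 CPM in the others. Gm16143 had 0 CPM in replicate 1 of db/db, where its other libraries held 3.35 to 4.03 CPM. Adrb3 stood at 48.0 CPM in that library, the others at 30.9 to 33.2 CPM. In WT, Letmd1 was at 366 CPM in replicate 3, against 543 to 572 CPM, and Rgs7 at 31.6 CPM in replicate 1, against 26.7 to 27.5 CPM.

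Among the cell type sums, nerve and Schwann genes summed to 235 CPM in WT replicate 3, against 340.0 to 354 CPM in the other WT libraries, and lymphocyte genes to 37.3 CPM in replicate 1 of db/db, the others lying at 3.90 to 5.38 CPM.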

How the results depend on the processing

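The number of members moved most with the limits and with the reference chosen for scaling: 651 genes met the rule at a fold limit of 1.5, 49 at a limit of 3, and 1396 with each library scaled to the shared adipocyte genes, which were higher in db/db. Under the other scalings it ran from 190 to 243, with 234 genes at 10 reads and 157 at 30 reads, and from 192 to 233 when each library was left out in turn, when 169 to 188 of the 201 remained. Of the 845 recomputed folds of the members given with every value, 0 turned and 44 fell under 2. Every alternative count of genes differing (2018 to 3170, main 2568) and lower (889 to 1315, main 1102) stayed within 1.5 times the main count. With each library left out in turn these were 2236 to 2483 and 889 to 1056. The cell type sums kept their side of the threshold with mitochondrially encoded genes in the total and under TMM. Of 3 scalings chosen after seeing the data, DESeq2 size factors and leaving out skeletal muscle genes changed no call. With the shared adipocyte genes as reference, the log2 differences fell to 0.73 for fibroblast and progenitor genes (exact permutation p = 0.0571), 0.79 for nerve and Schwann genes (exact permutation p = 0.0571) and 0.11 for smooth muscle and pericyte genes (exact permutation p = 0.714), none of which passed, while macrophage, skeletal muscle and white adipocyte sums did.

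Replicate numbers 1 to 4 occur in both genotypes but concern different animals, and the deviations of same-numbered libraries correlated at -0.0781 to 0.049, so the numbers did not pair the samples. Blocking on that number (replicate block), 2557 genes differed and 1106 were lower.

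At these depths a member's db/db level of a few reads is imprecise: 3 members had at most 10 reads in every db/db library.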
